A study of Homo sapiens with 8 samples.

Results

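A set of 42 genes of nucleolar ribosome production was followed through drug treatment of 92.1 cells, an established human uveal melanoma line. They were chosen by name, as every row of the deposited expression table whose symbol was on a list of 42 genes, out of 18406 symbols, and all 42 were found and tested. The cells were treated for 24 h with vehicle (DMSO), with 10 nM trametinib, which inhibits the kinases MEK1 and MEK2, with 10 nM panobinostat, which inhibits histone deacetylases, or with both. Each of the 4 groups had 2 libraries of total RNA, 8 in all, and every library came from the same cell line, so no other line is represented. The panobinostat and combination libraries were numbered in the series apart from the vehicle and trametinib libraries. Any difference in preparation between these sets cannot be told apart from an effect of panobinostat. Trametinib against vehicle, and the combination against panobinostat, each compare libraries within a set. The treatment label of the panobinostat libraries also calls that drug a MEK inhibitor, and the drug name was followed. For the combination the label states 10 nM once, and use of each drug at that dose is an assumption. The series asked how cells of this tumour respond when histone deacetylases are inhibited beside MEK.

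The nucleolus is where RNA polymerase I transcribes ribosomal DNA into a long precursor RNA. Small nucleolar RNA-protein particles modify that precursor, box C/D particles by 2'-O-methylation and box H/ACA particles by pseudouridylation. Large assemblies then cut and fold it into the 40S and 60S subunits, a costly process that growing and dividing tumour cells depend on. The 42 members were read in 7 roles. They comprise 6 nucleolar scaffolds and regulators, 3 box C/D proteins, 3 box H/ACA proteins, 9 proteins of the small subunit processome (the early 40S precursor, SSU), 3 late 40S factors, 11 factors of the 60S subunit, and 7 subunits or transcription factors of RNA polymerase I.

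The libraries held between 6897784 and 16861001 reads, recovered from the deposited values. The replicates correlated across the 13320 tested genes at r = 0.991 for vehicle, 0.897 for trametinib, 0.982 for panobinostat and 0.974 for the combination. Trametinib replicate 2 stood apart, with 5362 genes at 0 against 3743 in its replicate and 2222 to 2890 in the other 6 libraries. The labels do not say whether replicates were separate cultures, and p-values reflect only how these libraries varied, possibly for technical reasons. Of the 7 melanocytic markers, PMEL (28666 to 53493), SOX10 (10220 to 19962) and the others except DCT were abundant in all 8 libraries, but several moved with treatment. DCT was at 14.4 and 4.75 in the vehicle libraries, 1984 and 1912 under trametinib, 5.10 and 10.1 under panobinostat, and 258 and 236 under both drugs. With trametinib, TYR rose by 0.87 and MITF by 1.04 on the log2 scale. Among markers of other cells, CDH5 (endothelial) was at 0 throughout and PTPRC (haematopoietic) was at most 11.7. Of the 3 epithelial markers, EPCAM was at most 12.2 and CDH1 at most 19.1. KRT14, the third, was at 3.61 and 3.17 in the vehicle libraries, 38.1 and 9.04 under trametinib, 0 and 1.01 under panobinostat, and 16.4 and 60.9 under both drugs, and it passed as higher under trametinib and under both drugs than under panobinostat. Of the 4 fibroblast markers, DCN was at most 7.02, while LUM ranged from 169 to 592 and PDGFRA from 7.92 to 105. Against vehicle, LUM passed as higher with panobinostat (log2 change 0.73) and in the combination (1.08). PDGFRA passed as higher with trametinib (2.73) and in the combination (1.91). COL1A1 also moved with treatment, at 133 and 149 in vehicle and 509.7 to 821 in the treated libraries. The most abundant RNA, MALAT1, also moved, from 4.19% of reads in vehicle replicate 1 to 12.2% in combination replicate 2. The part of any of these in the results was not tested.

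This gene group held fewer of the reads under each treatment, and fewest in the combination. The 42 members together took 0.724% and 0.727% of the reads in the vehicle libraries, 0.229% and 0.225% under trametinib, 0.435% and 0.444% under panobinostat, and 0.184% and 0.185% under both drugs. The 4 groups did not overlap in this share. An exact permutation test of 2 libraries against 2 cannot give a two-sided p below 0.33, so no p is given for it. Without NCL and NPM1, which held 0.251% and 0.242% of the reads in vehicle, the mean share of the other members was 0.479% for vehicle, 0.160% for trametinib, 0.307% for panobinostat and 0.127% for both drugs. In bulk RNA, fewer cells of a kind and less RNA per cell cannot be told apart, and each value is relative to the RNA of its own library.

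**Figure D1:**
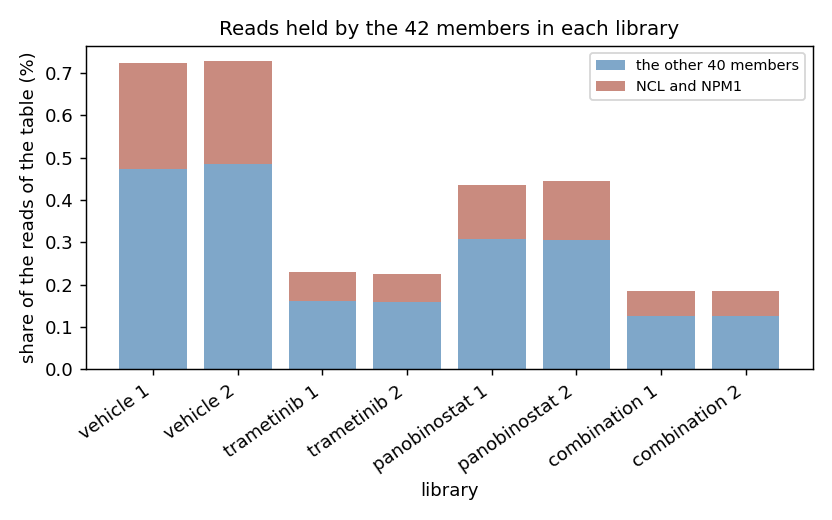
Share of each library's reads (%, vertical axis) held by the 42 members, with NCL and NPM1 stacked on the other members, for the 8 libraries. The bars stand at 0.724% and 0.727% in vehicle and at 0.184% and 0.185% in the combination, with both single drugs between.

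As a percentage of its vehicle mean, the median member stood at 35.3% with trametinib (10.5% to 84.8% across members), at 62.1% with panobinostat (43.4% to 92.9%) and at 28.1% in the combination (9.74% to 59.0%). The order of the 4 group means was vehicle, panobinostat, trametinib, combination in 32 members. In 9 members trametinib was lowest and the combination next to it. Only UBTF had trametinib above panobinostat. Against vehicle, 27 members passed the test as lower under all 3 treatments, 14 passed under trametinib and the combination but not under panobinostat, and WDR12 passed under the combination but neither drug alone. Of all tested genes, 27.4% passed as lower under trametinib, 15.6% under panobinostat and 25.5% in the combination. The share of all genes lower under all 3 was not counted, and these 3 comparisons share the vehicle libraries.

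**Figure D2:**
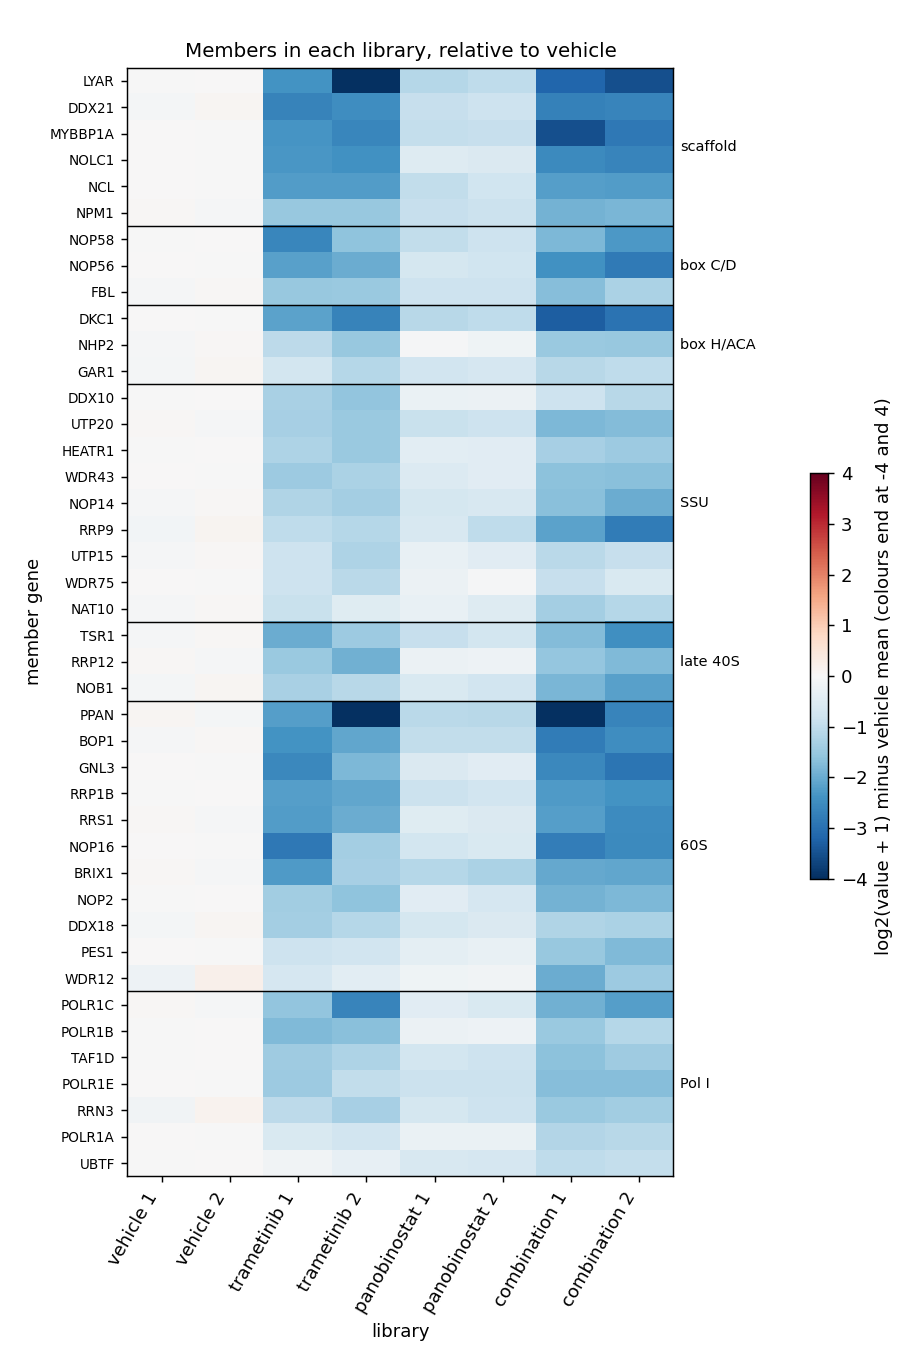
Colour gives log2(value + 1) of each member (rows, grouped by role) in each of the 8 libraries (columns) minus its vehicle mean; blue is lower, and colours end at -4 and 4. The trametinib and combination columns are the darkest in nearly every row, and LYAR and PPAN differ most between the trametinib libraries.

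Because the members moved together, their promoters were read for 3 motifs, each on both strands, in windows from 250 bases before to 50 bases after each listed start (RefSeq, GRCh38.p14). Of the 42 members, 34 had an entry, 9 of them with 2 starts whose windows can overlap. NOLC1, NOP58, RRP12, BOP1, RRS1, DDX18, RRP1B and POLR1E were not read. CACGTG, the E-box letters bound by MYC and related factors, stood in a window of 13 of 34 members (38.2%) and of 8.77% of all 27305 genes in the table. The motif began between 64 bases before and 36 bases after the start, and at or after the start in 8 of the 13 windows. In the 250 bases before the start alone, 4 members (11.8%) had it, against 7.73% of all genes.

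The 7 stretches below were chosen to show that placement in members of different roles. Each runs from 90 bases before to 30 bases after the start, 5' to 3' on the gene's strand, with the E-box in capitals. In UTP20, RRP9 and DDX21 the capitals begin before the start, and in FBL, WDR43, PES1 and GNL3 after it. For DDX21 and GNL3 the start shown is not the first listed, and their first listed windows had no CACGTG.
DDX21, chr10:68956557-68956676, plus strand: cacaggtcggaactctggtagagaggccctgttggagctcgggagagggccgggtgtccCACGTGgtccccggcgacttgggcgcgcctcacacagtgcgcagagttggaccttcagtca
FBL, chr19:39846350-39846469, minus strand: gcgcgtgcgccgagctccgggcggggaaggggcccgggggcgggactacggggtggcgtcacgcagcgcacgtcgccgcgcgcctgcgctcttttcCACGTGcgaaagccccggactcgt
UTP20, chr12:101280015-101280134, plus strand: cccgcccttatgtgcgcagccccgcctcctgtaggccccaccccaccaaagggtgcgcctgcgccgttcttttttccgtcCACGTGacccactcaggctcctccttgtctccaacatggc
WDR43, chr2:28894577-28894696, plus strand: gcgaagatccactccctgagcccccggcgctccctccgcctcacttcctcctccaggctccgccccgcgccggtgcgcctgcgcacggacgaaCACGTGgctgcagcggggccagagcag
RRP9, chr3:51941875-51941994, minus strand: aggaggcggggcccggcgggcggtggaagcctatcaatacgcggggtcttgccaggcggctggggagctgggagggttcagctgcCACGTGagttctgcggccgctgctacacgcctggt
PES1, chr22:30591881-30592000, minus strand: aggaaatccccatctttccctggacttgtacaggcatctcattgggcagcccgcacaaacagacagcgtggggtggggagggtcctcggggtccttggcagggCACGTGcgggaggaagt
GNL3, chr3:52685942-52686061, plus strand: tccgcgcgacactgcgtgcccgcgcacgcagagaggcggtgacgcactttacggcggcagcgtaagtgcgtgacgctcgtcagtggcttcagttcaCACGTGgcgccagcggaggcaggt

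CCGGAAG, the core letters of ETS factor sites, stood in 12 of 34 members (35.3%) and 12.2% of all genes, and GGGCGG, the GC box, in 26 of 34 (76.5%) and 48.3%. The members' first windows had a median GC content of 63.9%, against 58.7% over all 35116 windows, and these shares were not matched for GC content. No RNA polymerase I gene among the 6 with an entry had CACGTG, while POLR1B, POLR1C, TAF1D and RRN3 had CCGGAAG. POLR1C held 3 matches, shown here in the 250 bases before its start with the matches in capitals, a pair of which overlap on opposite strands.
POLR1C, chr6:43516839-43517088, plus strand: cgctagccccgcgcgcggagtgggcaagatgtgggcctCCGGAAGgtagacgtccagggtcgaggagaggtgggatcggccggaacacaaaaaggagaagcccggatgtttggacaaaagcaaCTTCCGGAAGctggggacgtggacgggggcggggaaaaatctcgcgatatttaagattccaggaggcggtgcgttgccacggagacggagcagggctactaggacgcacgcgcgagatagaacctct

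A match describes letters only. Members with and without CACGTG had median log2 changes of -1.40 (n = 13) and -1.44 (n = 21) under trametinib, -0.72 and -0.67 under panobinostat, and -1.82 and -1.72 under both drugs. MYC itself was at 4021 and 4133 in the vehicle libraries, 53.2 and 32.1 under trametinib, 5921 and 6139 under panobinostat, and 44.5 and 89.8 under both drugs. It fell by 6.59 ± 0.30 on the log2 scale with trametinib (SE; limma adjusted p = 2.3e-07) and by 5.99 ± 0.30 in the combination (adjusted p = 5.2e-07), and with panobinostat the change was 0.56 ± 0.30 (adjusted p = 0.19). Its part in the members' changes was not tested.

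Under trametinib alone, 41 of 42 members were lower than in vehicle and none higher, where 27.4% of all tested genes were lower and 23.7% higher by the same limma test. The median member changed by -1.50 on the log2(value + 1) scale, against -0.07 over all genes. Among called genes, 35 members fell by more than 2-fold, as did 2022 of all 13320 tested genes. In all 42 members, both trametinib libraries lay below both vehicle libraries, where 39.1% of all genes did so. The median was -1.47 without trametinib replicate 2 and -1.48 without replicate 1.

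Panobinostat alone lowered 27 members and raised none, where 15.6% of all tested genes were lower and 15% higher. The median member changed by -0.69, against 0.00 over all genes. Of the members that passed, only BRIX1 and DKC1 fell by more than 2-fold, as did 541 of all 13320 tested genes. LYAR and PPAN, at 47.2% and 46.3% of vehicle, did not pass. In 40 members both panobinostat libraries lay below vehicle, as in 38.5% of all genes, and NHP2 and WDR12 overlapped. The members' median minus that of all genes was -0.74 without vehicle replicate 1 and -0.63 without vehicle replicate 2. It was -0.68 without panobinostat replicate 1 and -0.70 without panobinostat replicate 2. In all, 13 calls held without any single library: NCL, NPM1, NOLC1, DDX21, FBL, NOP56, DKC1, UTP20, WDR43, BOP1, RRP1B, UBTF and TAF1D.

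The combination lowered all 42 members, where 25.5% of all tested genes were lower and 24.5% higher. The median change was -1.83, against 0.03 over all genes. Among called genes, 38 members fell by more than 2-fold, as did 1583 of all 13320 tested genes. Of these calls, 41 held without any single library, and PPAN did not.

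**Figure D3:**
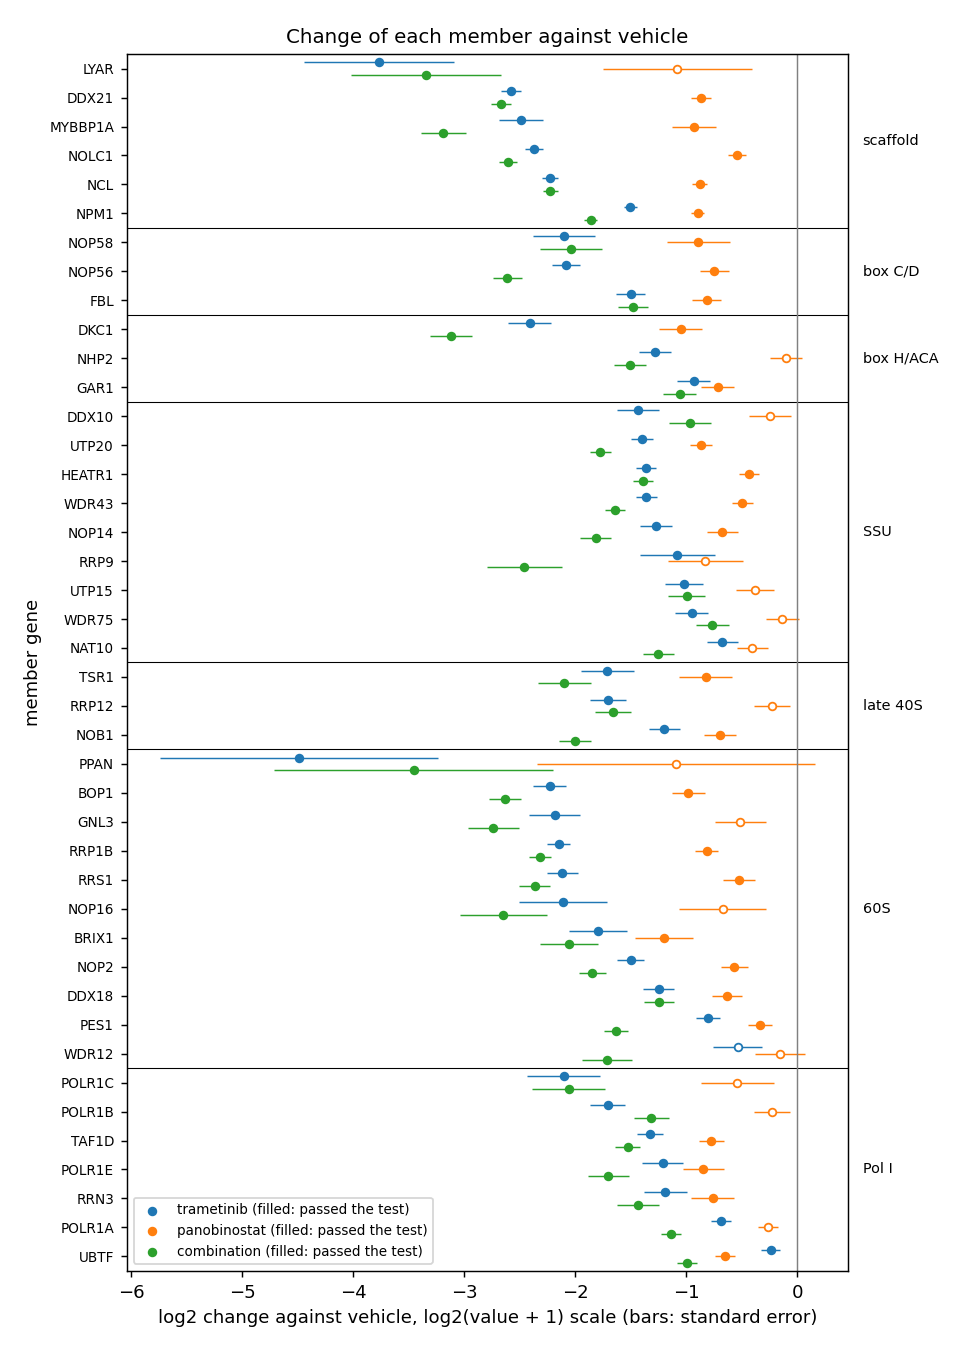
Log2 change of each member against vehicle (horizontal axis, with standard error) for trametinib, panobinostat and the combination, by role; filled points passed the limma test. Panobinostat points lie nearest 0 in every member except UBTF, and the open trametinib point is WDR12.

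The nucleolar scaffolds had the lowest median change of the 7 roles, -2.43 with trametinib and -2.64 in the combination, and all 6 fell in both. NCL, nucleolin, which binds ribosomal DNA and precursor RNA, was at 12317 and 12235 in the vehicle libraries, 2633 and 2601 under trametinib, 6210 and 7138 under panobinostat, and 2641 and 2606 under both drugs. It stood at 21.3% of vehicle with trametinib and 21.4% in the combination, and these 2 groups overlapped (change between them 0.00 ± 0.07). Its log2 changes from vehicle were -2.23, -0.88 and -2.23 in that order of treatments (± 0.07 SE; adjusted p at most 3.0e-05).

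NPM1, nucleophosmin, a chaperone of ribosome assembly and export, was at 13135 and 12290 in the vehicle libraries, 4480 and 4453 under trametinib, 6635 and 7004 under panobinostat, and 3402 and 3577 under both drugs. None of its 4 groups overlapped, and the combination lay below trametinib by -0.36 ± 0.06 (adjusted p = 0.0015). NPM1 has many processed pseudogenes, and the sources used here do not say how reads were shared with them. NOLC1, the particle chaperone Nopp140, was at 3365 and 3337 in the vehicle libraries, 667 and 624 under trametinib, 2350 and 2235 under panobinostat, and 570 and 531 under both drugs. Its panobinostat change (-0.55 ± 0.08) was smaller in size than its trametinib change (-2.38 ± 0.08), and trametinib lay below panobinostat by -1.83 (adjusted p = 2.7e-07).

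DDX21, an RNA helicase that couples RNA polymerase I transcription to processing, was at 4363 and 4796 in the vehicle libraries, 711 and 819 under trametinib, 2422 and 2588 under panobinostat, and 700 and 738 under both drugs. MYBBP1A, a nucleolar partner of MYB and p53, went from 1331 and 1317 to 257 and 214 under trametinib, 688 and 698 under panobinostat, and 115 and 181 under both drugs. Both fell under every treatment, and the panobinostat call of MYBBP1A (-0.93) was lost without any 1 vehicle or panobinostat library. LYAR, a nucleolar zinc finger protein, was the least settled of the scaffolds, at 630 and 654 in the vehicle libraries, 121 and 17.1 under trametinib, 290 and 317 under panobinostat, and 70.2 and 54.8 under both drugs. Its trametinib change of -3.77 ± 0.67 (adjusted p = 0.0013) was -2.39 without trametinib replicate 2 and -5.15 without replicate 1, and its panobinostat change of -1.08 did not pass (adjusted p = 0.27).

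The 3 box C/D proteins fell under all 3 treatments. FBL, fibrillarin, the methyltransferase of the particle, was at 1404 and 1471 in the vehicle libraries, 497 and 514 under trametinib, 818 and 812 under panobinostat, and 445 and 593 under both drugs. NOP56, a core protein, was at 2705 and 2690, then 599 and 674, 1655 and 1558, and 506 and 382 in the same order. NOP58, the other core protein, was at 985 and 1005, 163 and 326, 508 and 564, and 286 and 204. In each, the trametinib and combination libraries lay below both panobinostat libraries, and only NOP56 was lower in the combination than with trametinib (-0.53 ± 0.13, adjusted p = 0.012; -0.33 and no longer past the threshold without combination replicate 2). The trametinib changes were -1.50 ± 0.13 for FBL, -2.08 ± 0.13 for NOP56 and -2.10 ± 0.28 for NOP58, whose call with panobinostat (-0.89, adjusted p = 0.039) was lost without any 1 of 6 libraries.

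Box H/ACA proteins differed among themselves. DKC1, dyskerin, the pseudouridine synthase, was at 1187 and 1166 in the vehicle libraries, 265 and 183 under trametinib, 550 and 584 under panobinostat, and 119 and 151 under both drugs. Its combination change of -3.12 ± 0.19 left it at 11.5% of vehicle, and the step from trametinib to the combination was -0.71 (adjusted p = 0.019; lost without combination replicate 1, at -0.54). NHP2 was at 1360 and 1482 in the vehicle libraries, 687 and 495 under trametinib, 1372 and 1267 under panobinostat, and 502 and 494 under both drugs, so panobinostat overlapped vehicle (-0.11 ± 0.14, adjusted p = 0.63). GAR1 was at 680 and 750, 425 and 327, 419 and 448, and 332 and 351 in the same order. Its 3 treated groups lay close together, and neither trametinib against panobinostat (-0.22 ± 0.15) nor the combination against panobinostat (-0.34 ± 0.15) passed.

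All 9 small subunit processome members fell with trametinib (median -1.28), 4 with panobinostat (median -0.44) and 9 in the combination (median -1.39). HEATR1, which also supports RNA polymerase I transcription, was at 3351 and 3428 in the vehicle libraries, 1434 and 1212 under trametinib, 2541 and 2466 under panobinostat, and 1350 and 1240 under both drugs. UTP20, a large scaffold of the particle, was at 1679 and 1560, 648 and 580, 868 and 904, and 464 and 481. WDR43 was at 1856 and 1808, 673 and 754, 1249 and 1349, and 592 and 578. HEATR1 overlapped between trametinib and the combination, whereas UTP20 and WDR43 did not. For those 2 the further step was -0.38 (adjusted p = 0.017) and -0.28 (adjusted p = 0.041), and it was lost without either combination library and, for WDR43, also without trametinib replicate 2 (-0.20) or any vehicle or panobinostat library.

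NOP14 also fell under each treatment (-1.28, -0.68 and -1.82). UTP15, WDR75, RRP9, DDX10 and NAT10 fell with trametinib and in the combination, and their panobinostat changes of -0.14 to -0.83 did not pass. RRP9, a U3 particle protein, had the largest step from trametinib to the combination of any member. It was at 160 and 188 in the vehicle libraries, 85.2 and 77.4 under trametinib, 111 and 84.7 under panobinostat, and 38.6 and 24.3 under both drugs. Trametinib and panobinostat overlapped, and the combination lay below both, by -1.38 ± 0.34 from trametinib (adjusted p = 0.013; -1.05 and lost without combination replicate 2), and its trametinib call was lost without either vehicle library (-1.20 and -0.97). DDX10, a helicase, was at 347 and 349, 141 and 116, 288 and 296, and 197 and 160. It lay higher in the combination than with trametinib in both libraries, but the difference of 0.47 did not pass (adjusted p = 0.088).

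The late 40S factors all fell with trametinib and in the combination. NOB1, the nuclease that makes the final cut of 18S ribosomal RNA, was at 1074 and 1184 in the vehicle libraries, 457 and 526 under trametinib, 731 and 659 under panobinostat, and 316 and 249 under both drugs. Its 4 groups did not overlap, and the step from trametinib to the combination was -0.80 ± 0.14 (adjusted p = 0.0025). TSR1, which blocks premature translation factor binding, was at 1058 and 1122, 275 and 400, 578 and 650, and 324 and 198, with trametinib and the combination overlapping. RRP12, an export factor, fell by 1.71 on the log2 scale with trametinib, and its panobinostat change of -0.23 did not pass.

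Among the 60S factors, the 3 proteins of the PeBoW complex, which matures 5.8S and 28S ribosomal RNA, had unlike values. BOP1 was at 1396 and 1499 in the vehicle libraries, 276 and 342 under trametinib, 736 and 727 under panobinostat, and 208 and 259 under both drugs. PES1 was at 1229 and 1220, 685 and 714, 943 and 995, and 430 and 359. WDR12 was at 357 and 470, 258 and 307, 360 and 374, and 102 and 151. The step from trametinib to the combination did not pass for BOP1 (-0.40, adjusted p = 0.063). It passed for PES1 and WDR12, at -0.83 ± 0.11 (adjusted p = 0.00044) and -1.18 ± 0.22 (adjusted p = 0.0036).

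The trametinib changes of the complex were -2.23 ± 0.15 for BOP1, -0.81 ± 0.11 for PES1 and -0.54 ± 0.22 for WDR12, the 1 member that did not pass (adjusted p = 0.070). WDR12 did pass without trametinib replicate 2 (-0.67), without either combination library, with DESeq2 and with a replicate block. In the combination all 3 genes lay more than 2-fold below vehicle, at -2.63, -1.64 and -1.72. No test compared the changes of different genes.

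The other 60S members fell with trametinib, with log2 changes from -1.25 (DDX18) to -4.49 (PPAN). PPAN, a Brix-domain factor, had few reads, at 116 and 103 in the vehicle libraries, 23.1 and 0 under trametinib, 51.0 and 50.4 under panobinostat, and 4.68 and 16.7 under both drugs. Its trametinib libraries differed widely, and the fitted change rests on the 0. It was -2.71 with a pseudocount of 10 and -2.20 without trametinib replicate 2, and it was no longer past the threshold without either vehicle library. In the combination PPAN changed by -3.46 (adjusted p = 0.044), and that call was lost without any 1 of 6 libraries, with values from -2.64 to -4.28. Reads that run on into its neighbour P2RY11 make its count uncertain.

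BRIX1, of the same domain family, had the largest change with panobinostat, at 763 and 703 in the vehicle libraries, 151 and 292 under trametinib, 330 and 306 under panobinostat, and 178 and 172 under both drugs. That change was -1.20 ± 0.26 (adjusted p = 0.0075; lost without vehicle replicate 1 or panobinostat replicate 2, at -1.14 and -1.15), and trametinib and panobinostat did not differ by the test (-0.59, adjusted p = 0.097). With trametinib BRIX1 changed by -1.79, which was -1.32 without trametinib replicate 1 and -2.27 without replicate 2. NOP16, at 69.2 and 199 with trametinib, moved likewise between -1.36 and -2.87 around -2.11. RRP1B, a nucleolar processing factor, was at 1739 and 1765 in the vehicle libraries, 377 and 411 under trametinib, 955 and 1033 under panobinostat, and 365 and 336 under both drugs, with the combination below trametinib in both libraries by less than the test could call (-0.17, adjusted p = 0.24). RRP1B (-2.15), RRS1 (-2.12), GNL3 (-2.19) and NOP2 (-1.50) fell with trametinib in every fit that left out 1 library. GNL3, nucleostemin, which shuttles in the nucleolus of proliferating cells, did not pass with panobinostat (-0.51, adjusted p = 0.12).

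All 7 RNA polymerase I members fell with trametinib (median -1.21) and in the combination (median -1.44), and 4 fell with panobinostat (median -0.65). POLR1A, its largest subunit, was at 1260 and 1241 in the vehicle libraries, 815 and 734 under trametinib, 1047 and 1033 under panobinostat, and 558 and 575 under both drugs. POLR1B, the second largest, was at 500 and 519, 149 and 161, 431 and 439, and 183 and 228. The 2 catalytic subunits thus had different lowest groups: POLR1A was lower in the combination than with trametinib (-0.45 ± 0.09, adjusted p = 0.0050), whereas both combination libraries of POLR1B lay above trametinib (0.40 ± 0.16, adjusted p = 0.089). Neither passed with panobinostat, at -0.27 (adjusted p = 0.052) and -0.23 (adjusted p = 0.33).

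POLR1C, which RNA polymerases I and III share, was at 374 and 354 in the vehicle libraries, 122 and 57.3 under trametinib, 264 and 236 under panobinostat, and 96 and 77.6 under both drugs. POLR1E, of the subunit pair that aids initiation, was at 497 and 483, 180 and 247, 271 and 272, and 150 and 149. The trametinib changes were -2.10 ± 0.33 for POLR1C and -1.21 ± 0.18 for POLR1E. With panobinostat POLR1E fell (-0.85, adjusted p = 0.0076, lost without any 1 vehicle or panobinostat library), and the POLR1C change of -0.54 did not pass.

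The initiation factors fell under every treatment. RRN3, TIF-IA, which growth signals including ERK switch on by phosphorylation, was at 357 and 431 in the vehicle libraries, 189 and 156 under trametinib, 243 and 219 under panobinostat, and 140 and 148 under both drugs. TAF1D, a subunit of the promoter factor SL1, was at 1307 and 1318, 488 and 558, 789 and 744, and 423 and 487. Their combination changes were -1.44 ± 0.19 and -1.53 ± 0.11. RRN3 has copies named RRN3P1, RRN3P2 and RRN3P3, so its level is uncertain, and its panobinostat call (-0.76, adjusted p = 0.014) was lost without any 1 vehicle or panobinostat library.

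UBTF is the upstream binding factor that holds ribosomal DNA open. It was at 1684 and 1738 in the vehicle libraries, 1550 and 1351 under trametinib, 1099 and 1078 under panobinostat, and 839 and 875 under both drugs. The groups did not overlap, and UBTF was higher with trametinib than with panobinostat (0.41 ± 0.09, adjusted p = 0.0047), the only such member, where 18.7% of all tested genes were higher and 23.4% lower in that comparison and 33 members were lower. Its trametinib change of -0.24 ± 0.09 was the smallest of all (adjusted p = 0.044) and passed without trametinib replicate 1 only among the 8 fits that left out 1 library, with values from -0.14 to -0.34. Panobinostat lowered it by -0.65 ± 0.09 (adjusted p = 0.00065) and the combination by -0.997 ± 0.09 (adjusted p = 1.5e-05).

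**Figure D4:**
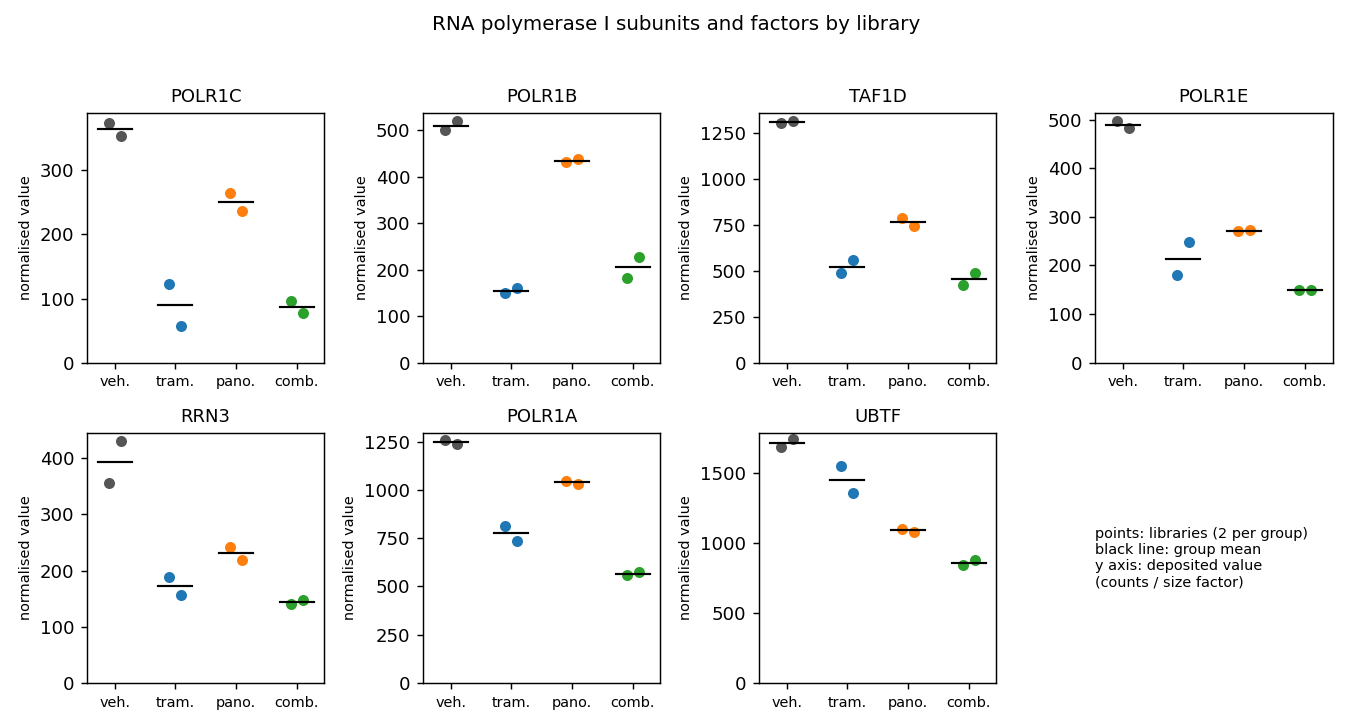
Deposited value (vertical axis, counts divided by a size factor) of the 7 RNA polymerase I members in each library; points are libraries and lines are group means of 2. UBTF steps down from vehicle through trametinib and panobinostat to the combination, while POLR1B with panobinostat (431 and 439) stays near vehicle (500 and 519).

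Adding panobinostat to trametinib lowered 14 members further and raised none, where 15.2% of all tested genes were lower and 17.6% higher. The median change was -0.26, against 0.06 over all genes. The 14 were NPM1, MYBBP1A, NOP56, DKC1, UTP20, WDR43, NOP14, RRP9, NAT10, NOB1, PES1, WDR12, POLR1A and UBTF, and NPM1, NOB1, PES1, WDR12, POLR1A and UBTF kept the call in every fit. With 1 library left out, the members' median minus that of all genes ranged from -0.29 (without trametinib replicate 2) to -0.38 (without trametinib replicate 1). With all libraries, 12 of 42 members had a positive change, passing or not, as had 7218 of all 13320 tested genes. Some members' changes depended on the trametinib library. Without trametinib replicate 1, LYAR, DDX10, PPAN and POLR1C lay higher in the combination. Without trametinib replicate 2, NOP58 (0.56) and POLR1B (0.45) did.

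Adding trametinib to panobinostat lowered 40 members (median -1.28) and raised none, where 13.1% of all tested genes were lower and 10.9% higher. GAR1 and PPAN (-2.36, adjusted p = 0.22) did not pass, and the next largest changes were those of LYAR (-2.27), MYBBP1A (-2.26) and GNL3 (-2.23). With trametinib against panobinostat, the median was -0.91, against -0.07 over all genes. In that comparison 33 members were lower and only UBTF higher, where 23.4% of all tested genes were lower and 18.7% higher. The lower members were led by LYAR (-2.69), with PPAN at -3.40 not passing (adjusted p = 0.055).

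The combination was also set against the sum of the single drugs by an interaction, the panobinostat change on top of trametinib minus the panobinostat change alone. A positive value means that the log2 change with panobinostat was higher (less negative or more positive) when trametinib was present. In all, 8 members passed and all were positive, where 10.2% of all tested genes passed as positive and 9.04% as negative. They were NCL (0.89 ± 0.10, adjusted p = 0.00031), NPM1 (0.54 ± 0.08, adjusted p = 0.0018), DDX21 (0.78 ± 0.13, adjusted p = 0.0030), FBL (0.84 ± 0.19, adjusted p = 0.013), RRP1B (0.65 ± 0.15, adjusted p = 0.013) and TAF1D (0.57 ± 0.16, adjusted p = 0.034), with UTP20 (0.49) and DDX18 (0.64) near the threshold. In all 8, panobinostat alone lowered the gene, and in NPM1 and UTP20 it lowered the gene on top of trametinib too.

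NCL, NPM1 and DDX21 kept the interaction call in every fit, and the other 5 lost it in 4 to 6 of the 8 fits that left out 1 library. How many members passed in each of these fits rose and fell with the number over all genes. The members' median interaction minus that of all genes ranged from 0.28 (without panobinostat replicate 1) to 0.38 (without trametinib replicate 1). The lowest values were those of WDR12 (-1.02, adjusted p = 0.052), RRP9 (-0.54, adjusted p = 0.47) and PES1 (-0.49, adjusted p = 0.052), none of which passed. The median over all 42 was 0.38, against 0.08 over all genes.

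**Figure D5:**
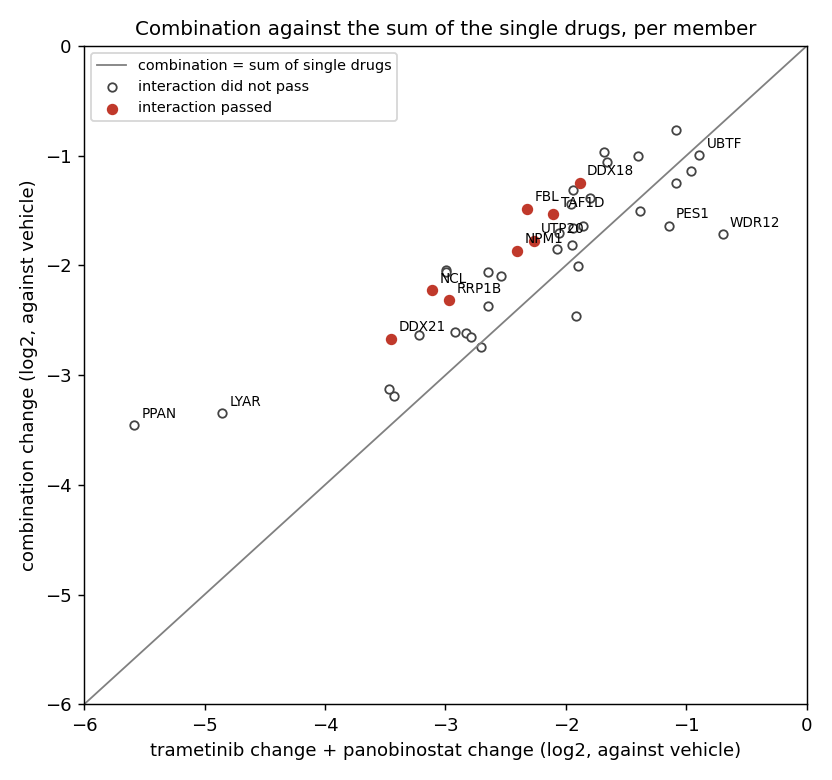
Combination change of each member (vertical axis, log2 against vehicle) against the sum of its trametinib and panobinostat changes (horizontal axis), with a line where both are equal; red points passed the interaction test. Red points lie above the line, and WDR12 and PES1 lie below it.

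The rest of the pathway was read from 143 further genes in 6 lists, all of them tested. Of these, 109 were lower and 2 higher with trametinib (median -0.997), where 27.4% of all tested genes were lower. With panobinostat 55 were lower and 2 higher (median -0.45), where 15.6% of all were lower, and in the combination 111 were lower and 1 higher (median -1.03), where 25.5% of all were lower. The counts of each list below are to be read against the same shares. Other small subunit factors fell with trametinib in 36 of 41 genes, among them WDR36 (-1.69) and NHP2L1 (-1.55), which binds the RNA of both C/D and spliceosomal particles. Other 60S factors fell in 39 of 45, among them URB2, at 487 and 493 for vehicle and 56.2 and 56.3 for trametinib, and RSL1D1 (-1.84).

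Factors that assemble nucleolar particles fell in 6 of 10 with trametinib. TCOF1, treacle, a nucleolar factor of ribosomal DNA transcription, was at 2130 and 2140 in the vehicle libraries, 342 and 406 under trametinib, 879 and 899 under panobinostat, and 330 and 294 under both drugs. It had the same order of groups as most members and fell under each treatment (adjusted p at most 7.4e-05). RUVBL1, of the assembly ATPase, changed by -1.59 with trametinib. In the RNA exosome, which trims precursor ends, 9 of 13 fell, including EXOSC2 (-1.73) and EXOSC4 (-1.23).

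RNA polymerase III, which makes 5S ribosomal RNA and transfer RNA, had 11 of 20 genes lower with trametinib (median -0.58), 6 lower with panobinostat and 13 in the combination. POLR3G changed by -1.78 and BDP1 by -0.95 with trametinib. Of 14 other RNA polymerase I genes, several shared with other polymerases, 8 were lower with trametinib, including POLR2F (-0.95) and POLR2H (-1.55). Changes of the 14 with trametinib ran from -2.48 to 0.33, with a median of -0.75. The few genes that rose were singled out after their values were seen. TWISTNB, an RNA polymerase I subunit, rose with trametinib (0.33 ± 0.12, adjusted p = 0.042) and in the combination (0.58 ± 0.12, adjusted p = 0.0028), from 578 and 479 in vehicle to 699 and 629 and to 794 and 783. GLTSCR2 rose with trametinib (0.77), and with panobinostat POLR2L (0.38) and DIS3 (0.55) rose.

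Of the 42 members, 10 carry small nucleolar or Cajal body RNA genes inside them in the GENCODE 29 annotation, among them TAF1D with 8, GNL3 with 6 and NOP56 with 5. The sources used here do not say whether reads were counted by strand or how reads from such inner genes were assigned, so these counts may include them.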

How the data were processed

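Total RNA of 8 samples was made into libraries with NuGEN's Ovation Human FFPE kit, per the labels' protocols. The submitters' processing notes name TopHat2 2.0.13, Cufflinks 2.2.1 and DESeq2, and list hs37d5 for the vehicle and trametinib libraries. The authors deposited 1 normalised signal value per gene and library. Each value was a whole multiple of its library's smallest value (100% within 1e-06), so the deposited signal equals counts divided by a size factor, and dividing recovered the reads.

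The test was limma 3.58.1, run in R 4.3.3 with its trend option on log2(value + 1) of all 8 libraries together (residual degrees of freedom 4, prior 5.32). It covered the 13320 genes whose mean reached 10, and the threshold was 0.05 on p-values adjusted by Benjamini-Hochberg over those genes. The log2 scale understates changes of low genes. The procedure was tested on simulated data. Same-numbered libraries did not deviate together, so no block was used. Alternatives were edgeR 4.0.16 and DESeq2 1.42.0 on recovered reads, other scalings, pseudocount and filter, and each library left out.

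The members, roles and further lists were chosen with earlier results of these data known. Values are printed for members fixed by role and for the extreme or interacting members of each comparison. For each further list the 2 genes of smallest adjusted p with trametinib are named.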

Additional observations from a re-analysis of the deposited data

Results flagged for a closer look

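For 8 members the effect of panobinostat differed between cells with and without trametinib, by the interaction term of the limma fit (adjusted p under 0.05 over 13320 genes). The log2 differences were 0.89 for NCL, 0.54 for NPM1, 0.78 for DDX21, 0.84 for FBL, 0.49 for UTP20, 0.64 for DDX18, 0.65 for RRP1B and 0.57 for TAF1D. All are positive, so in each gene the log2 change with panobinostat was higher on top of trametinib than alone. On top of trametinib, NCL (0.00) and FBL (0.02) hardly changed, and only NPM1 and UTP20 passed as lower. NCL, NPM1 and DDX21 kept the call under every alternative. The calls were lost in 4 of 8 fits that left out 1 library for FBL and RRP1B, in 5 for TAF1D and in 6 for UTP20 and DDX18. The result also rests on each drug having been used at 10 nM in the combination.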

How the results depend on the processing

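With 2 libraries per group, each fit that left out 1 library assumed that the lone library of a group varies like the others. Across all 15 alternatives, the members' median minus that of all genes stayed between -1.39 and -1.48 with trametinib. In the combination against vehicle it stayed between -1.83 and -1.90.

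Leaving out 1 library gave 14 to 35 lower members with panobinostat, 9 to 23 lower and 0 to 4 higher for the combination against trametinib, and 3 to 20 positive and 0 to 3 negative interactions. The largest of each of these counts came from a fit without a trametinib library, where the numbers over all tested genes were also largest. These ranges therefore reflect how many genes each fit called, and not the members alone. The members' medians ranged down to -1.15 for the combination against panobinostat, -0.82 for trametinib against panobinostat and 0.30 for the interaction. DESeq2 on recovered reads gave 14 positive and 2 negative interactions, where 1847 and 1701 of all 13320 tested genes passed. There were 2 negative with edgeR (1381 over all genes), 2 with a pseudocount of 10 (1291) and 1 with TMM scaling (1203). These negative calls were WDR12 in all 4 and PES1 in all but TMM scaling. With the replicate number as a block there were 7 positive and 1 negative interactions (1296 and 1122 over all genes). With panobinostat 26 members were then lower (1987 over all genes). The other counts were as reported, and the numbers did not pair the libraries (correlations -0.023 to 0.022). In all, 3 values turned to the opposite sign and passed: LYAR (combination against trametinib, -0.96 without trametinib replicate 2 but 1.802 without replicate 1), NOP58 (same comparison, -0.43 without trametinib replicate 1 but 0.56 without replicate 2) and NOP16 (interaction, -0.62 without trametinib replicate 1 but 0.89 without replicate 2), none of which passed with all libraries. The trametinib libraries of these genes differ widely.

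Without NCL and NPM1 the share of reads was 0.479% for vehicle, 0.160% for trametinib, 0.307% for panobinostat and 0.127% for both drugs. CACGTG matches fell from 13 to 4 members in the 250 bases before the start, and to 9 when only the first listed start was read, a choice made after seeing the data. Over single members, 4105 values kept their side of the threshold, whatever their sign where neither fit passed. A further 188 lost the call, 114 gained it and 3 reversed. Over all genes, edgeR on recovered reads called 3482 lower and 3301 higher with trametinib, against 3644 and 3153 with limma. Depth limits PPAN most, with 0 reads in 1 library.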
